A study of Mus musculus with 10 samples.

Results

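The genes described here were 8 neurotrophic factors and receptors, taken by their names from the gene column of the count files: the neurotrophins Bdnf and Ntf3, the Trk receptors Ntrk2 and Ntrk3, the p75 receptor Ngfr, and the secreted factors Gdnf, Cntf and Vgf. All 8 were among the 24391 gene names of the files, of which 19538 had at least 1 count in any mouse. The measurements were RNA-seq read counts from the whole bilateral hippocampus of 10 male mice, each mouse giving 1 library, and the strain was spelled C56BL/6J in the study's methods. The SAH group (n = 4) had a subarachnoid hemorrhage made by perforating the circle of Willis on 1 side with a filament. In the Sham group (n = 3) the filament was pushed only to the point of resistance, and the Naive group (n = 3) had no surgery. The mice were 10 to 14 weeks old, the tissue was collected on day 4, and the surgery was done under isoflurane. Only SAH mice with a large fall in cerebral blood flow at perforation were kept in the study. The study pooled Sham and Naive mice as control. The same was done here (n = 6), beside comparisons with either group alone.

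Neurotrophins are small secreted proteins that keep neurons alive and change the strength of their synapses. Brain-derived neurotrophic factor, from Bdnf, binds the receptor TrkB, from Ntrk2, and neurotrophin-3, from Ntf3, binds TrkC, from Ntrk3, while uncleaved precursors of both also bind p75, from Ngfr. In the hippocampus, Bdnf is transcribed in excitatory neurons when they fire, and the BDNF to TrkB pathway is best known there for its part in long-term potentiation and memory.

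Library depth was 19743388 to 27254655 counts a mouse, and no pair of libraries held identical values. Markers of hippocampal principal neurons were present in every mouse, at a summed 1138 to 1345 CPM (counts per 1000000 counts of the library, scaled by TMM). Choroid plexus markers, at 54.9 to 227 CPM in 7 mice, were at 855 to 1253 CPM in SAH mouse 3, SAH mouse 4 and Sham mouse 7. SAH mouse 3 also stood farthest from the control mean over all genes, with 16.5% of them more than 0.5 away on the log2 scale against 1.68% to 9.82% in the other mice. Values without SAH mouse 3, or without all 3 of these mice, are given beside results that they moved.

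No member of the group passed the test in SAH against control. Of the 8 genes, 6 had enough counts to be tested, 0 were called by edgeR's quasi-likelihood test at an adjusted p under 0.10, and DESeq2 called 1, Vgf. Over all genes, edgeR called 701 of 14993 (4.68%), with 3.13% higher and 1.54% lower in SAH, and DESeq2 called 6.87%. At an unadjusted p under 0.05, 3 of the 6 (Vgf, Ngfr and Ntrk2) passed, where 17.0% of all genes did. The signs were split, 3 higher and 3 lower, and the median log2 fold change of the 6 was −0.012 beside −0.0024 over all genes tested. In bulk tissue, fewer cells of a type and less RNA per cell cannot be told apart, which holds for every difference that follows.

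**Figure D1:**
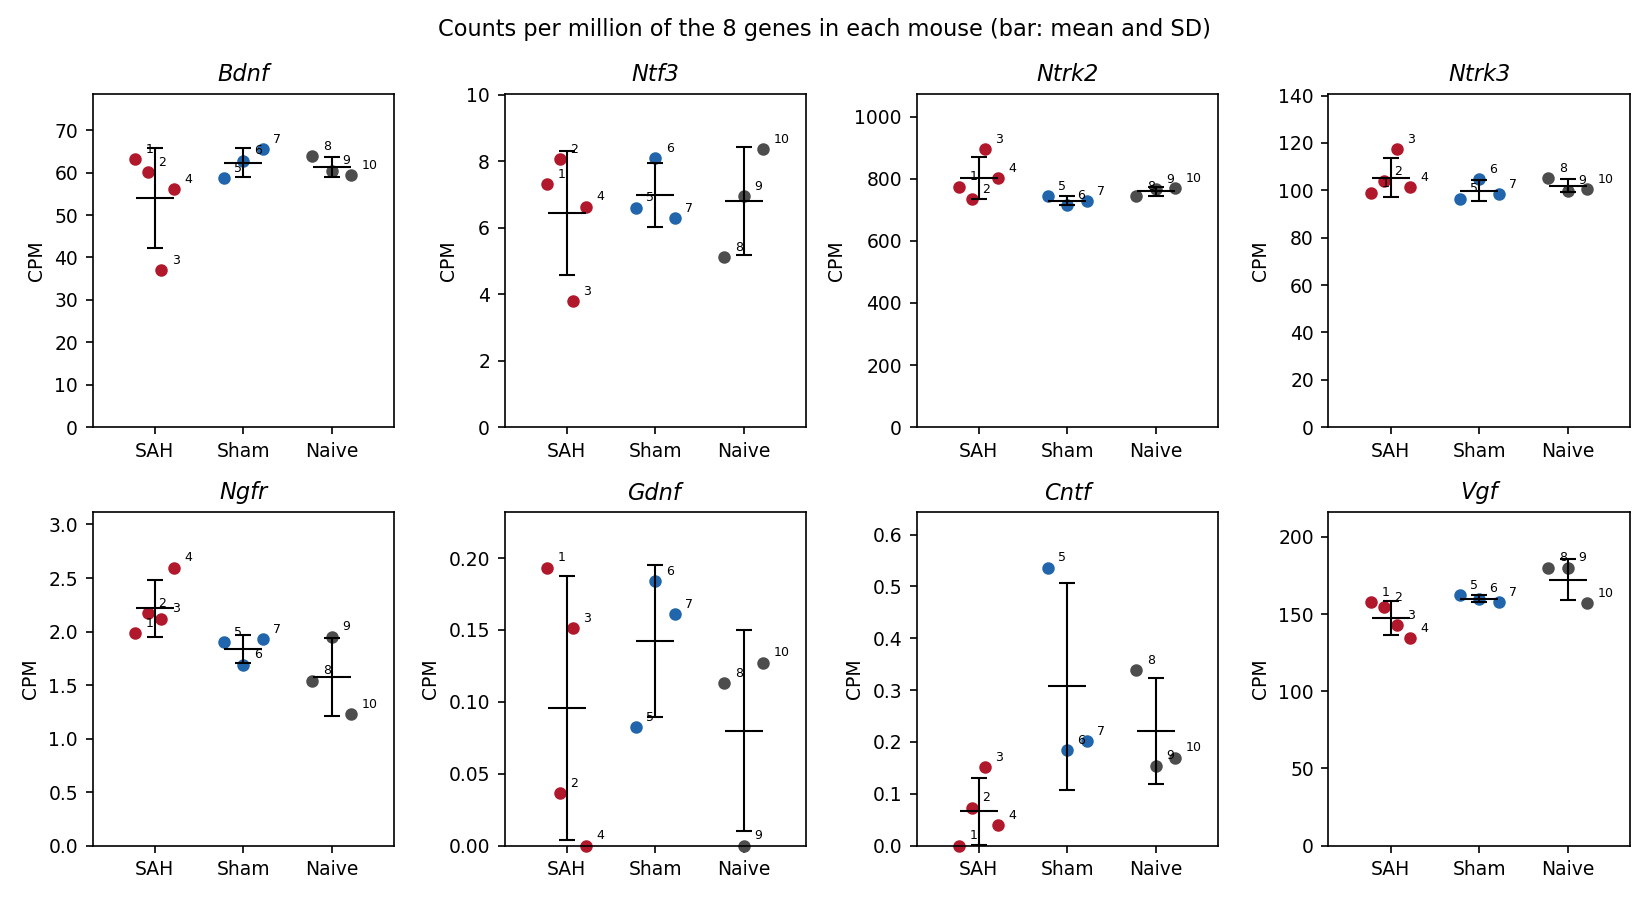
CPM (y axis, from 0) of the 8 genes in each mouse, grouped as SAH, Sham and Naive (x axis), with the mouse number beside each point and the bar giving the mean and SD. SAH mouse 3 has the lowest Bdnf (37.0 CPM) and Ntf3 (3.79 CPM) and the highest Ntrk2 (895 CPM), while the SAH points lie above all control points for Ngfr and below them for Cntf.

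Levels were compared between genes per kilobase of exon (RPKM), using the exon length in the files. Vgf had the highest level at 62.2 ± 5.51 RPKM (SD, n = 10), followed by Ntrk2 at 54.7 ± 3.67 RPKM and Ntrk3 at 19.9 ± 1.14 RPKM. The ligands were lower than their Trk receptors: Bdnf was at 8.74 ± 1.21 RPKM and Ntf3 at 4.34 ± 0.916 RPKM. Ngfr followed at 0.562 ± 0.109 RPKM, Cntf at 0.153 ± 0.129 RPKM and Gdnf at 0.0215 ± 0.0149 RPKM. From Ntrk2 down to Ngfr, the ranges over the 10 mice of neighbouring genes did not overlap. Vgf and Ntrk2 overlapped in range over the 10 mice, as did Ngfr with Cntf and Cntf with Gdnf. Within single mice, Vgf was above Ntrk2 in all but SAH mice 3 and 4. By the same measure, Ngfr was above Cntf in every mouse, and Cntf was above Gdnf in all but SAH mouse 1. In SAH the first pair came close, at 57.8 ± 4.23 RPKM for Vgf and 57.1 ± 4.86 RPKM for Ntrk2 (n = 4), whereas in Sham and in Naive every Vgf level was above every Ntrk2 level. The Cntf level per length is too low by construction, since it could be counted over only 226 of its bases, as described with that gene. Over those bases alone its mean would be 0.293 RPKM in SAH, 1.36 RPKM in Sham and 0.977 RPKM in Naive, where Ngfr had means of 0.652, 0.541 and 0.463 RPKM, so the order of Cntf and Ngfr is not set.

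**Figure D2:**
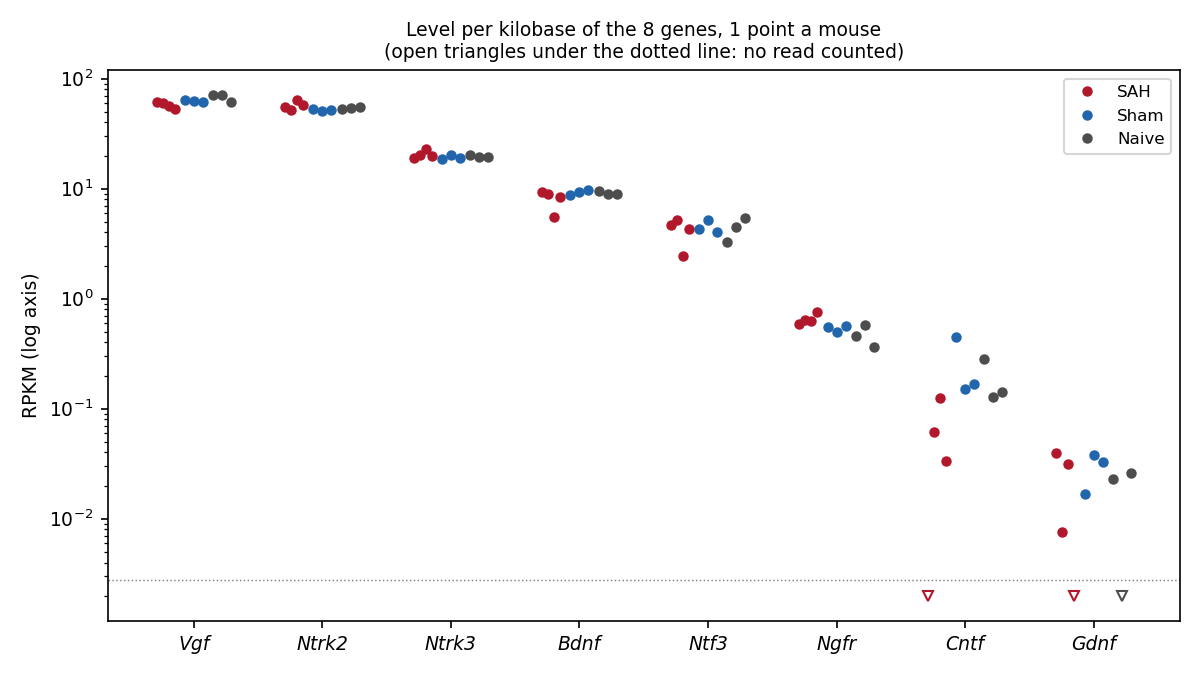
Level per kilobase of exon (RPKM, y axis, log scale) of the 8 genes (x axis, ordered by their mean), with 1 point a mouse coloured by group and open triangles for mice with no read. The levels run from 62.2 RPKM for Vgf to 0.0215 RPKM for Gdnf.

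Bdnf (mm9 chromosome 2, 109514857 to 109567200, plus strand, 9 exon blocks, 6714 bases) had 733 to 1709 counts a mouse. In SAH mice 1 to 4 it stood at 63.1, 60.1, 37.0 and 56.1 CPM. The 3 Sham mice had 58.7, 62.8 and 65.5 CPM and the 3 Naive mice 63.9, 60.5 and 59.4 CPM. Of the SAH mice, 1 and 2 lay among the controls, 4 lay slightly under them, and 3 lay far under. The mean was 54.1 ± 11.7 CPM in SAH (SD, n = 4) and 61.8 ± 2.72 CPM in control (n = 6), a log2 fold change of −0.19 (SE 0.11, 95% interval −0.43 to 0.04). This did not pass edgeR's quasi-likelihood test (adjusted p = 0.403). Leaving out SAH mouse 3 gave −0.05 (adjusted p = 0.755), and without the 3 mice rich in choroid plexus markers it was 0.01 (adjusted p = 0.954). At this spread, a log2 change under 0.37 could not have passed the threshold.

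The Bdnf counts pool the transcripts from all of its start sites, of which RefSeq lists 7 promoters on build GRCm38.p6, so a shift between start sites would not show in these values. Of the 8 genes, 6 had RefSeq promoters (14 in all, each with 250 bases before and 50 after the start); Ntrk3 and Vgf had no entry. Because Fos and Junb, which code for parts of the AP-1 factor, were lower in SAH (given further on), the letters TGANTCA, which include the AP-1 site, were searched on both strands, along with the CRE letters TGACGTCA, the EGR letters GCGNGGGCG and the CCAAT box. TGANTCA was found in 1 Bdnf promoter and in the Cntf promoter, 2 of 14 (14.3%), and in 7.81% of 32851 mouse promoters. The AP-1 site has C or G in the middle: the Cntf match reads TGACTCA and has those letters, whereas the Bdnf match reads TGAATCA and has not. The narrower search, added after these matches were seen, found TGACTCA on either strand in 1 of the 14 promoters (7.14%) and in 5.2% of all promoters. TGACGTCA (1.79% of all promoters) and GCGNGGGCG (5.55%) were in none of the 14, and CCAAT (37.4%) was in 1 Ntf3 and 1 Gdnf promoter. The letters were searched exactly as written, so a CRE or other site that differs from them by a letter was not counted. The promoters with TGANTCA are shown 5′ to 3′ on the gene's strand, the match in capitals, from chr2:109676782-109677081 (plus strand, match starting 152 bases before the start) and chr19:12765583-12765882 (minus strand, 245 bases before).
Bdnf promoter: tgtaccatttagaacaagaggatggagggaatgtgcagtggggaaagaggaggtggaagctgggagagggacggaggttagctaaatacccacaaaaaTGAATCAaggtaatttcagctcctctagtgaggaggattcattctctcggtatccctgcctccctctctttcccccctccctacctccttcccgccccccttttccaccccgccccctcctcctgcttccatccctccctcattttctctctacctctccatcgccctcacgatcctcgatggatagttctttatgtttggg
Cntf promoter: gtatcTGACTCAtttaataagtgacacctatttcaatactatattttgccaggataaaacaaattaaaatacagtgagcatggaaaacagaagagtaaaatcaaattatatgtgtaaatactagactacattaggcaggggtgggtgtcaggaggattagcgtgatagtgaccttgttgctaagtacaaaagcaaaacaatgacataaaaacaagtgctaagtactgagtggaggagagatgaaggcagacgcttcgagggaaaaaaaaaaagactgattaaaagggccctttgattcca

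A match of letters is a description of the sequence and no measure of binding. The table held 16 promoters of 12 of the 15 activity-regulated genes that were lower in SAH, and of these 16, 0 held TGANTCA, 4 (25.0%) held GCGNGGGCG and 2 (12.5%) held TGACGTCA.

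Ntf3 (mm9 chromosome 6, 126051430 to 126116762, minus strand, 3 exon blocks, 1548 bases) had 75 to 220 counts a mouse. Its level was 7.30, 8.05, 3.79 and 6.63 CPM in SAH mice 1 to 4. The Sham mice had 6.60, 8.09 and 6.27 CPM and the Naive mice 5.11, 6.94 and 8.36 CPM. As for Bdnf, SAH mouse 3 was the lowest of the 10, and the other SAH mice lay within the control range. The log2 fold change was −0.09 (SE 0.18, 95% interval −0.48 to 0.31, edgeR adjusted p = 0.837). Without SAH mouse 3 it had the opposite sign, at 0.09 (adjusted p = 0.847), and without the 3 mice rich in choroid plexus markers it was 0.14 (adjusted p = 0.830).

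Ntrk2, the TrkB gene (mm9 chromosome 13, 58907930 to 59235331, plus strand, 20 exon blocks, 14037 bases), had 14911 to 20049 counts a mouse. The counts pool its full-length and truncated forms, of which the truncated form is the one astrocytes make. Its level was 775, 735, 895 and 801 CPM in SAH mice 1 to 4. It was 744, 716 and 729 CPM in the Sham mice and 744, 767 and 769 CPM in the Naive mice. SAH mice 1, 3 and 4 were above every control mouse and SAH mouse 2 was below the control median of 744 CPM. The log2 fold change was 0.11 (SE 0.05, 95% interval 0.0043 to 0.21), with an unadjusted p = 0.0423 that did not hold after adjustment (edgeR adjusted p = 0.274). Without SAH mouse 3 it was 0.05 (adjusted p = 0.618), and without the 3 mice rich in choroid plexus markers 0.02 (adjusted p = 0.933). The 8 astrocyte markers summed to 5280 to 6413 CPM in SAH and 5224 to 5709 CPM in control, 1 of them was called higher, and SAH mouse 3 had the highest sum. Their part in the Ntrk2 values was not tested.

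Ntrk3, the TrkC gene (mm9 chromosome 7, 85337000 to 85722724, minus strand, 19 exon blocks, 5170 bases), had 1944 to 2850 counts a mouse. Its level was 98.9, 103.9, 117 and 101 CPM in SAH mice 1 to 4. It was 96.5, 104.7 and 98.4 CPM in the Sham mice and 105.1, 99.9 and 100.6 CPM in the Naive mice. Only SAH mouse 3 lay outside the range of the control mice. The log2 fold change was 0.06 (SE 0.05, 95% interval −0.04 to 0.17, edgeR adjusted p = 0.545), and 0.01 without SAH mouse 3 (adjusted p = 0.947). Without the 3 mice rich in choroid plexus markers it was 0.0038 (adjusted p = 0.988).

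In SAH mouse 3 the ligands and their receptors thus differed from the control mean in opposite directions. On the log2 CPM scale, Bdnf was −0.74 and Ntf3 −0.83 from it, whereas Ntrk2 was 0.27 and Ntrk3 0.22 above it; the SDs of the 6 control mice were 0.06, 0.26, 0.04 and 0.05. In that mouse the RPKM of Bdnf was 8.64% of that of Ntrk2. This share was 14.6% to 17.1% in SAH mice 1, 2 and 4 and 16.2% to 18.8% in control. The RPKM of Ntf3 was 10.8% of that of Ntrk3 there, with 21.8% to 25.9% in SAH mice 1, 2 and 4 and 16.3% to 27.7% in control. These are values of 1 mouse, with no test.

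**Figure D3:**
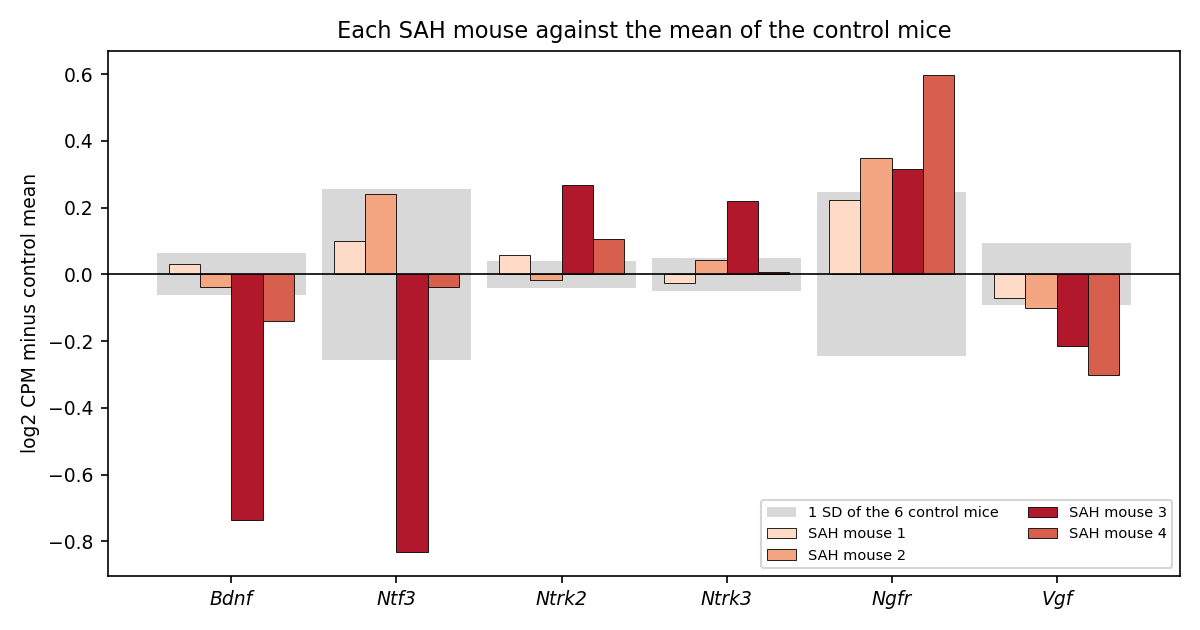
Log2 CPM of each SAH mouse minus the mean of the 6 control mice (y axis) for the 6 tested genes (x axis), with 1 bar a mouse and the grey band giving 1 SD of the control mice. SAH mouse 3 has the longest bars for Bdnf (−0.74), Ntf3 (−0.83), Ntrk2 (0.27) and Ntrk3 (0.22), and SAH mouse 4 for Ngfr and Vgf.

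Ngfr, the gene of the p75 receptor (mm9 chromosome 11, 95430140 to 95449012, minus strand, 6 exon blocks, 3401 bases), was scarce, with 29 to 65 counts a mouse. Its level was 1.98, 2.17, 2.12 and 2.60 CPM in SAH mice 1 to 4. It was 1.90, 1.69 and 1.93 CPM in the Sham mice and 1.54, 1.95 and 1.23 CPM in the Naive mice. All 4 SAH mice were above all 6 control mice, the closest pair being 1.98 and 1.95 CPM. Among the 14993 genes tested, 5.2% had SAH mice all on 1 side of the control mice, and of the 6 tested genes here Ngfr was the 1 that did. The mean was 2.22 ± 0.265 CPM in SAH (n = 4) and 1.71 ± 0.283 CPM in control (n = 6). The log2 fold change was 0.38 (SE 0.16, 95% interval 0.04 to 0.73, unadjusted p = 0.0316), and edgeR's adjusted p of 0.243 was over the threshold. At this SE a log2 change under 0.54 could not have passed. Leaving out 1 mouse at a time gave 0.30 to 0.43, all positive, and leaving out the 3 mice rich in choroid plexus markers gave 0.33 (adjusted p = 0.641).

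Ngfr is made by the cholinergic neurons that project to the hippocampus, by Schwann cells and by cells of the vessel wall and meninges, so markers of these cells were measured in the same libraries. Meningeal and fibroblast markers summed to 194 to 391 CPM in SAH and 141 to 186 CPM in control, and 7 of the 9 were called higher in SAH. Pericyte and smooth muscle markers summed to 116 to 173 CPM in SAH and 96.5 to 116 CPM in control, with 3 of 8 called higher. Endothelial markers summed to 132 to 253 CPM in SAH and 115 to 158 CPM in control, with 3 of 7 called higher. The 5 Schwann cell markers summed to 4.7 to 6.4 CPM in SAH and 5.0 to 6.7 CPM in control, and none was called. The 5 markers of cholinergic neurons summed to 0.8 to 1.4 CPM in SAH and 0.8 to 2.0 CPM in control, with Chat at no more than 0.16 CPM. The part of these cells in the Ngfr values was not tested.

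Vgf is a growth factor-inducible gene whose product is cut into secreted neuropeptides (mm9 chromosome 5, 137506165 to 137509221, plus strand, 2 exon blocks, 2553 bases). Of the 6 tested genes, it came closest to the threshold. It had 2830 to 4789 counts a mouse. Its level was 158, 154.7, 143 and 135 CPM in SAH mice 1 to 4. It was 162, 160.0 and 158 CPM in the Sham mice and 180.0, 180.1 and 157 CPM in the Naive mice. SAH mice 2, 3 and 4 were under every control mouse, and SAH mouse 1 was just above the lowest Naive and the lowest Sham mouse. The mean was 148 ± 10.8 CPM in SAH (n = 4) against 166 ± 10.9 CPM in control (n = 6). The log2 fold change was −0.17 (SE 0.06, 95% interval −0.29 to −0.05, unadjusted p = 0.00967), with an edgeR adjusted p = 0.140 and a DESeq2 adjusted p = 0.0962. Vgf passed edgeR's test without SAH mouse 1 (−0.21, adjusted p = 0.0867). Without the 3 mice rich in choroid plexus markers it was −0.10 (adjusted p = 0.596). Principal neuron markers summed to 1269 to 1345 CPM in SAH and 1138 to 1302 CPM in control, and of the 10, 1 was called, higher in SAH.

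Cntf, the gene of ciliary neurotrophic factor, which astrocytes and Schwann cells make (mm9 chromosome 19, 12838018 to 12840122, minus strand, 2 exon blocks, 1205 bases), had 0 to 13 counts a mouse and was kept out of the test by the filter on low counts. Of its 1205 bases, 979 (81.2%) are shared on the same strand with the readthrough gene Zfp91Cntf, and reads on both were discarded, so Cntf could be counted only over the rest. It had 0, 2, 3 and 1 counts in SAH mice 1 to 4. There were 13, 5 and 5 counts in the Sham mice and 9, 3 and 4 in the Naive mice. All SAH levels were under all control levels, as SAH mice were all on 1 side of the control mice for 4.27% of the 19538 genes with a count, but the closest pair (0.152 CPM in SAH mouse 3 and 0.154 CPM in Naive mouse 9) rested on 3 counts each, and the 0 of SAH mouse 1 allows up to 0.145 CPM. The sum was 6 counts in SAH and 39 in control, at mean levels of 0.0662 ± 0.0643 CPM (n = 4) and 0.264 ± 0.149 CPM (n = 6). A 2-sided exact permutation test gave p = 0.00952, the smallest that 210 splits allow, which any gene with groups that do not overlap would reach. In a fit with no filter the log2 fold change was −1.96 (SE 0.62, edgeR adjusted p = 0.127). The readthrough gene itself had 1 count in SAH mouse 3 and 0 in the others.

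Gdnf, the glial cell line-derived factor (mm9 chromosome 15, 7760048 to 7787580, plus strand, 4 exon blocks, 4867 bases), was at the limit of detection with 0 to 5 counts a mouse. It had 4, 1, 3 and 0 counts in SAH mice 1 to 4, then 2, 5 and 4 in the Sham mice and 3, 0 and 3 in the Naive mice. The groups overlapped, with 8 counts in SAH and 17 in control in all, and a 2-sided exact permutation test gave p = 0.752. A count of 0 allows up to 0.120 CPM in SAH mouse 4 and up to 0.154 CPM in Naive mouse 9, and no difference was detected.

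Against Sham alone, in a fit of all 3 groups, edgeR called 0 of the 6 genes and DESeq2 called 0, where edgeR called 0.72% of 15134 genes and DESeq2 2.0%. Ntrk2 passed at an unadjusted p of 0.0344, with a log2 fold change of 0.14 (95% interval 0.01 to 0.26, adjusted p = 0.463). Without SAH mouse 3 this was 0.08 (unadjusted p = 0.0785, adjusted p = 0.656). Vgf was at −0.12 against Sham alone (95% interval −0.26 to 0.02, edgeR adjusted p = 0.593). Ngfr was at 0.27 (95% interval −0.14 to 0.68, edgeR adjusted p = 0.681). Against Naive alone, edgeR called 0 of the 6 and DESeq2 called 1, where edgeR called 2.99% of genes and DESeq2 4.92%. There Ngfr was at 0.51 (95% interval 0.08 to 0.93, edgeR adjusted p = 0.243) and Vgf at −0.22 (95% interval −0.36 to −0.09, edgeR adjusted p = 0.115), and both were under 0.05 before adjustment. DESeq2 called Vgf (adjusted p = 0.0530), as did edgeR without SAH mouse 1 (0.0781), SAH mouse 2 (0.0950) or Naive mouse 10 (0.0713). These comparisons share the SAH mice.

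Between Sham and Naive, edgeR called 0 of the 6 genes, 0 passed at an unadjusted p under 0.05 and DESeq2 called 0, where edgeR called 1 gene of all (0.00661%) and DESeq2 2 (0.0132%). The log2 fold changes ran from −0.11 for Vgf to 0.23 for Ngfr. With 3 mice a side the intervals were wide, so surgery without bleeding could have moved Ntf3 by up to 0.56 or Ngfr by up to 0.69 on the log2 scale.

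**Figure D4:**
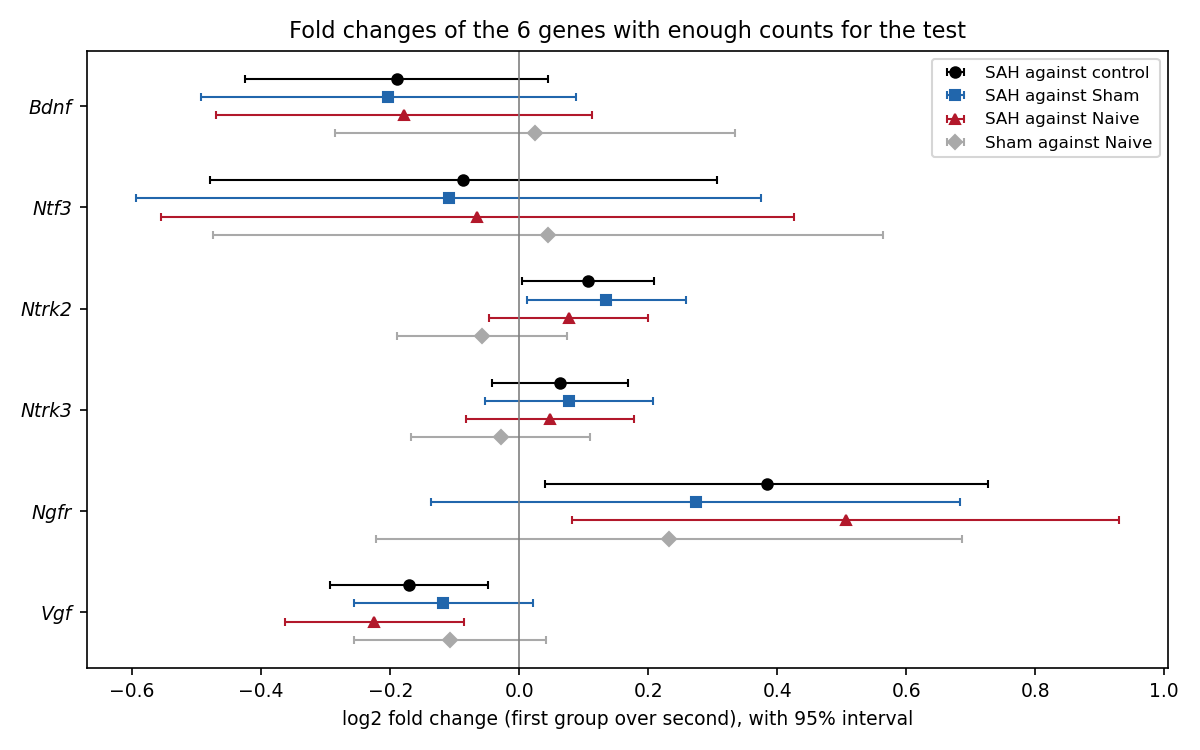
Log2 fold change (x axis) of the 6 tested genes (y axis) in the 4 comparisons, each with its 95% interval from edgeR's quasi-likelihood fit, where the first group named is over the second. Intervals that miss 0 are those of Ntrk2 (SAH against control and Sham), Ngfr and Vgf (SAH against control and Naive), and none of these passed after adjustment.

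The remaining genes of the pathways were taken from lists by role, tested in the same fit of SAH against control. For comparison with the counts of each list, edgeR called 3.13% of all genes higher and 1.54% lower there, and DESeq2 called 6.87%. The other neurotrophin ligands and receptors had 6 of 8 genes tested, with 1 called lower. This was Sorcs1, a sortilin-family receptor, at 16.9 ± 0.600 CPM in SAH and 19.8 ± 1.41 CPM in control (log2 fold change −0.23, SE 0.07, edgeR adjusted p = 0.0855), and of the 10 fits that left out a mouse it was called only in that without Sham mouse 6. It was at −0.17 against Sham alone (adjusted p = 0.481) and at −0.22 without the 3 mice rich in choroid plexus markers (adjusted p = 0.336). Sort1, the co-receptor for proneurotrophins, was at 0.07 (adjusted p = 0.402), and Ntf5 had too few counts. The median of the list was 0.01.

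Among 35 tested genes of Trk signalling, 1 was higher and 2 were lower, with a list median of −0.01. DESeq2 called 4 (6.87% of all genes), and 10 of the 35 were under 0.05 before adjustment, where 17.0% of all genes were. Shc1, an adaptor that docks on activated Trk receptors, rose from 6.95 ± 0.573 CPM in control to 9.03 ± 0.638 CPM in SAH (log2 fold change 0.38, SE 0.09, edgeR adjusted p = 0.0333), was called in 9 of 10 fits that left out a mouse, and was not called without SAH mouse 4. Against Sham alone Shc1 was at 0.32 and was not called (adjusted p = 0.286). Nras, a small GTPase, was at −0.24 (adjusted p = 0.0661) and the adaptor Gab1 at −0.24 (adjusted p = 0.0992), but Nras was called in 4 of the 10 fits (without SAH mouse 1, SAH mouse 2, Sham mouse 5 or Sham mouse 6) and Gab1 in 2 (without SAH mouse 2 or 4). Neither was called against Sham alone, where Nras was at −0.17 (adjusted p = 0.445) and Gab1 at −0.26 (adjusted p = 0.329). Nor were they called without the 3 mice rich in choroid plexus markers, with Nras at −0.14 (adjusted p = 0.525) and Gab1 at −0.18 (adjusted p = 0.154). Kidins220, Frs2, Plcg1, Mapk3, Akt1 and Creb1, at −0.09 to 0.09, did not pass. Nor did the other Shc adaptors, Shc2 (−0.16, edgeR adjusted p = 0.277) and Shc3 (−0.22, adjusted p = 0.101), whose sign was opposite to that of Shc1. Mapk7 (−0.21), Akt2 (−0.20) and Sh2b2 (0.38) also lay farther from 0 and were not called. None of the 10 genes of p75 signalling passed in edgeR (list median −0.05, smallest adjusted p = 0.146, Arhgdia), 3 of the 10 were under 0.05 before adjustment (17.0% of all genes were), and DESeq2 called 1 (6.87% of all genes). None of the 9 tested genes that cut proneurotrophins or hold back the cutting passed in edgeR or DESeq2, and 2 were under 0.05 before adjustment, close to the share of all genes.

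The GDNF family had 7 of 9 genes tested, 0 called by edgeR and 1 under 0.05 before adjustment (17.0% of all genes were). All 7 log2 fold changes were negative, but those of Gfra1 (−0.0034) and Artn (−0.0012) were next to 0, and the lowest was −0.29 for Nrtn. The smallest adjusted p was that of Gfra4, a co-receptor of the family (−0.18, adjusted p = 0.137), which DESeq2 called (adjusted p = 0.0929). Without the 3 mice rich in choroid plexus markers, Gfra4 was at −0.08 (edgeR adjusted p = 0.656). Of 10 tested genes of the CNTF and gp130 cytokines, 1 was called. This was Osmr, the oncostatin M receptor subunit, which rose from 5.62 ± 0.602 CPM in control to 10.5 ± 3.95 CPM in SAH (log2 fold change 0.89, SE 0.18, edgeR adjusted p = 0.0184) and was called in all 10 fits that left out a mouse. Without the 3 mice rich in choroid plexus markers its log2 fold change was 0.50 (adjusted p = 0.0721), and against Sham alone it was 0.85 and was not called in edgeR (adjusted p = 0.177), though DESeq2 called it. The subunits of the CNTF receptor itself stood at −0.02 for Cntfr, 0.04 for Lifr and 0.12 for Il6st, none past the threshold. Among 11 other neurotrophic factors, Igf1 was higher (0.26, SE 0.08, adjusted p = 0.0886), called only without SAH mouse 3 among the 10 fits that left out a mouse, and not against Sham alone (0.28, adjusted p = 0.305). It was called without the 3 mice rich in choroid plexus markers (0.34, adjusted p = 0.0885). Of the 9 granins and secretory granule proteins, the class Vgf belongs to, Pcsk1n, an inhibitor of prohormone cutting, was lower (−0.21, SE 0.06, adjusted p = 0.0968), called only without SAH mouse 1 or 2. In edgeR it was not called against Sham alone (−0.28, adjusted p = 0.113), where DESeq2 called it, or without the 3 mice rich in choroid plexus markers (−0.15, adjusted p = 0.490).

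Markers of 2 other cell types also moved in the same mice. All 8 oligodendrocyte markers were called lower, at a summed 4745 to 6058 CPM in SAH and 6948 to 9641 CPM in control, without overlap. Of the 8 microglia markers 3 were called higher, at a summed 423 to 521 CPM in SAH and 385 to 437 CPM in control. Their part, and that of the meningeal, pericyte and endothelial cells whose markers are given with Ngfr, in the values of Sorcs1, Shc1, Nras, Gab1, Osmr, Igf1 and Pcsk1n was not tested.

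Of 16 regulators of Bdnf transcription, edgeR called 1 and DESeq2 called 2, the other being Mef2a, a MADS-box transcription factor, at 0.20 in edgeR and not past its threshold (adjusted p = 0.137). The 1 that was lower was Npas4, an activity-induced transcription factor, at 20.6 ± 6.43 CPM in control and 8.06 ± 2.44 CPM in SAH (log2 fold change −1.33, SE 0.24, edgeR adjusted p = 0.00961). Creb1, Rest, Usf1, Mef2c and Camk4 were at −0.11 to 0.21 and did not pass. Of 20 activity-regulated transcripts, 15 were lower and 0 higher, where 1.54% of all genes were called lower, and the list median was −0.71. Besides Npas4, these were Fos (−1.57), Fosb, Junb, Egr1 (−0.93), Egr2 (−2.00), Egr4, Arc (−1.13), Nr4a1, Nr4a2, Nr4a3, Ier2, Dusp1, Dusp6 and Btg2. Of the 15, 14 were still called without SAH mouse 3 and 11 without the 3 mice rich in choroid plexus markers. Against Sham alone 8 were called (0.72% of all genes were), against Naive alone 13 (2.99% of all genes), and between Sham and Naive 0 in edgeR or DESeq2, with 5 under 0.05 before adjustment. The calls of Nr4a2, Nr4a3, Dusp6 and Btg2 were each lost in some fit that left out 1 mouse, and SAH mouse 4 and Naive mouse 8 were among those mice for all 4. The list was drawn up with these falls already known, so its count is a description.

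Bdnf is itself induced by activity, and its log2 fold change of −0.19 had a 95% interval of −0.43 to 0.04 beside the list median of −0.71. The 5 genes of the list that did not pass were Egr3 (−0.04), Homer1 (−0.05), Nptx2 (−0.10), Pcsk1 (−0.24) and Inhba (0.27). The Npas4 range was 5.45 to 11.2 CPM in SAH and 14.1 to 28.3 CPM in control, without overlap, while Bdnf overlapped. No test of the difference between Bdnf and these genes was made.

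**Figure D5:**
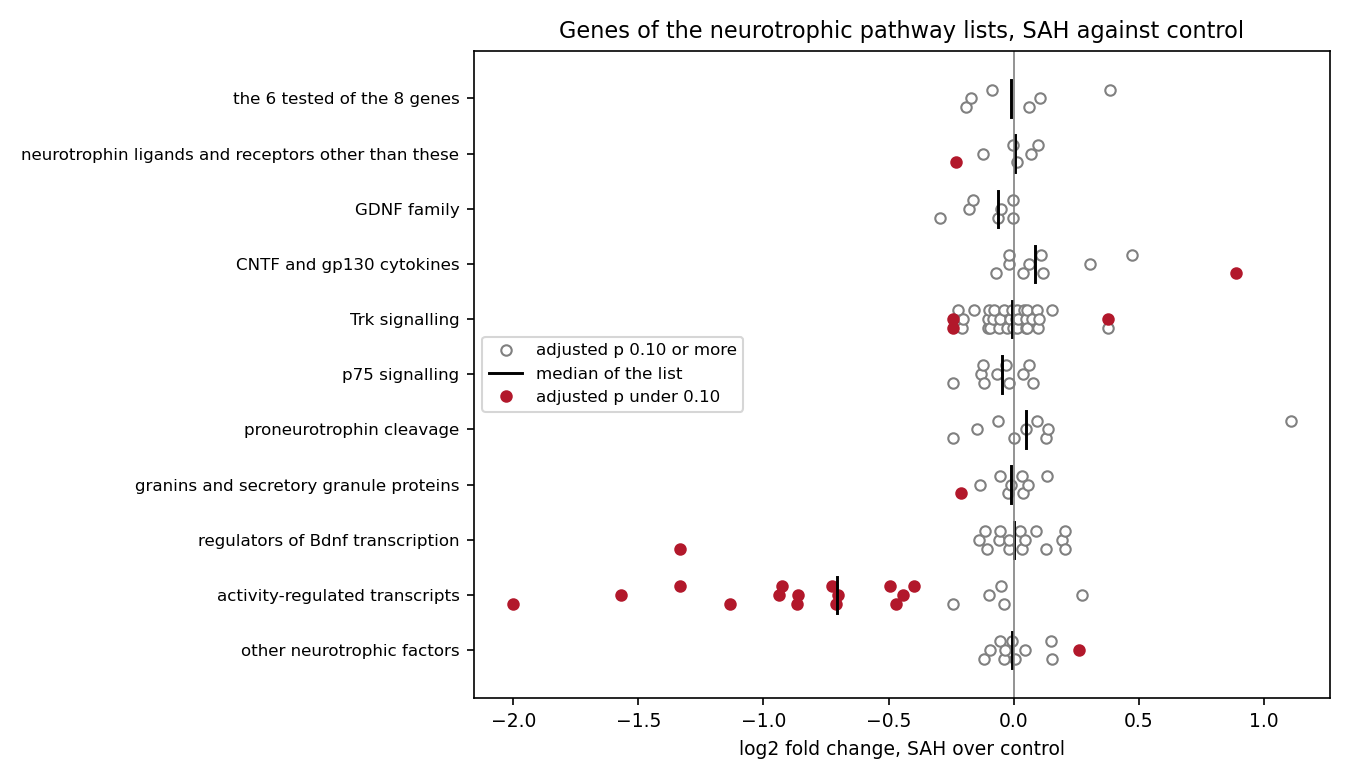
Log2 fold change in SAH over control (x axis) of every tested gene in the pathway lists (y axis), 1 point a gene, filled where edgeR's adjusted p was under 0.10, with a black bar at the median of each list. The activity-regulated transcripts, 15 of 20 filled, lie to the left with a median of −0.71, and the other medians lie between −0.06 and 0.09.

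The genes whose levels followed each member most closely over the 10 mice were found by the root mean square difference of standardized log2 CPM, where the median over all genes was 1.41 to 1.42. For Bdnf these were Klhl8 (0.168), Zfp493 (0.203) and Hdac5 (0.203), and for Ntf3 Mturn (0.334), Clpb (0.366) and Zfp759 (0.408). For Ntrk2 they were Mkln1 (0.268), Cabyr (0.269) and Tmod2 (0.273), and for Ntrk3 Arih2 (0.347), Fbn1 (0.351) and Trpc4 (0.351). For Ngfr they were Arhgef5 (0.259), Ccnd3 (0.358) and Col18a1 (0.379), and for Vgf Myo16 (0.235), Mast1 (0.322) and Plk3 (0.325). Of these 18 genes, Col18a1, a basement membrane collagen, was the 1 called in SAH against control, at 0.72 (edgeR adjusted p = 0.0110). Of all genes tested, 4.68% were called. With 10 mice and 1 of them far from the rest for Bdnf, Ntf3, Ntrk2 and Ntrk3, that mouse weighs heavily in the measure.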

How the data were processed

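RNA was measured in the whole hippocampi of 10 mice (SAH 4, Sham 3, Naive 3; 1 library each) by ribosomal RNA-depleted, stranded, paired-end sequencing. The authors aligned reads to mm9 with STAR and counted them per gene with featureCounts 1.6.2 over the union of the exons of each gene; the deposited values are raw counts. Reads that fell on more than 1 gene were discarded. Groups came from the labels. Counts were scaled by TMM, filtered (filterByExpr, minimum count 10, minimum total 15), and tested with the quasi-likelihood test of edgeR 4.0.16 in R 4.3.3 on all genes, with Benjamini-Hochberg adjustment and a threshold of 0.10. SAH against control was a fit of 2 groups, and Sham and Naive were compared separately in a fit of 3. DESeq2 1.42.0, the authors' tool, other scalings and filters, and leaving out each mouse were alternatives. The fit without the 3 mice rich in choroid plexus markers (summed CPM of 500 or more) was chosen after seeing the data. SE is the log2 fold change divided by the square root of F. The limit from a count of 0 is 3 counts and covers counting error only. The fit was tested on simulated data. The 8 genes and all lists were chosen with earlier results of these data known; all 8 are named, along with the called or closest genes of each list and the 3 genes nearest each member. Some genes of the lists are not reported here by name. List genes with unremarkable values, the markers named singly and the unmatched promoters were named after their values were seen. Promoter sequences are from RefSeq (GRCm38.p6), whose coordinates are not those of mm9.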

Additional observations from a re-analysis of the deposited data

Results flagged for a closer look

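A search for 1 mouse standing apart from its group (Dixon's test at the 95% level, in the 4 SAH and the 6 control mice) covered 64 groups of values over 32 genes, the 8 neurotrophic genes and the named genes of the lists. It found 4 of the 64, close to the 1 in 20 groups that chance gives, and none was 1 of the 8 genes. In SAH mouse 3, the activity-regulated genes Nr4a2 at 48.8 CPM (61.7 to 64.2 CPM in the others) and Dusp6 at 41.8 CPM (68.9 to 69.8 CPM) and the receptor gene Sorcs1 at 16.0 CPM (17.1 to 17.2 CPM) were low. In SAH mouse 4, Pcsk1n was at 282 CPM (321 to 328 CPM in the others). Of the 4, 3 came from SAH mouse 3, which also stood farthest from the control mean over all genes, and the cause was not tested.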

How the results depend on the processing

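The count of 0 called members in SAH against control became 1 (Vgf) with DESeq2, and ranged from 0 to 1 over the fits that left out 1 mouse, with 1 without SAH mouse 1. In SAH against Naive it became 1 with DESeq2 and ranged from 0 to 1, with 1 without SAH mouse 1, SAH mouse 2 or Naive mouse 10. Vgf passed with DESeq2 (−0.17, adjusted p = 0.0962) and without SAH mouse 1; its fits that left out a mouse gave −0.21 to −0.13. Ntf3 ranged from −0.22 to 0.093, the latter without SAH mouse 3. Without the 3 mice rich in choroid plexus markers, Bdnf was at 0.015 and Ntf3 at 0.14, both of the opposite sign and not called. The cause of these changes was not tested. Of the wider lists, 22 genes were called, of which 15 were activity-regulated transcripts, from the list drawn up with these falls known. Over all genes, edgeR called 4.68% in SAH against control and 0.72% against Sham alone. The 22 became 8 with Sham alone as control, all of them activity-regulated transcripts. They became 14 at an adjusted p under 0.05 and 14 without the 3 mice rich in choroid plexus markers. Leaving out 1 mouse gave 13 to 24, with 13 without SAH mouse 4 or Naive mouse 8 and 14 without Naive mouse 9. Counts were low for Ngfr, Gdnf and Cntf, at most 65 a mouse, and were too few for the test in Gdnf and Cntf. No paired analysis was possible because each mouse number occurs in 1 group only.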
